A study of Mus musculus with 6 samples.

Results

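Transcripts of 8 serpin genes of clade A were followed through the single-cell RNA sequencing of livers from wild-type (WT) and SIRT7 knockout (SIRT7-/-) mice. The genes are Serpina1a, Serpina1b, Serpina1c, Serpina1d, Serpina1e, Serpina3k, Serpina3n and Serpina6, 8 of the 16623 genes in the table. They were chosen by name, and selected on the measured difference between WT and SIRT7-/- mouse means in hepatocytes and other cell types, so the genotype values below describe them and do not test them. The table holds 3 WT and 3 SIRT7-/- mice, 5 to 6 months old, with the liver as the labelled tissue. From each liver, hepatocytes and nonparenchymal cells obtained by collagenase perfusion were pooled in equal numbers for one 10x Genomics 3′ library, so shares of cell types do not reflect the tissue. Neither the sex nor the strain of these 6 mice is given in the sources used here.

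Serpins are protease inhibitors that act once: the protease cleaves an exposed reactive centre loop and is trapped. The mouse carries several Serpina1 paralogs in place of the single human alpha-1 antitrypsin gene, and hepatocytes secrete their products into the blood, where neutrophil elastase is the best known target. Serpina3k and Serpina3n belong to the alpha-1 antichymotrypsin group, and Serpina3n is known as an acute-phase gene. Serpina6 encodes corticosteroid-binding globulin, a hormone carrier that no longer inhibits proteases.

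All 8 genes lie on chromosome 12 (GENCODE vM21, mm10) within 767.7 kb. Serpina6 (chr12:103646630-103657212) and the Serpina1 paralogs are on the minus strand, with Serpina1b at chr12:103728156-103830373, Serpina1d at chr12:103763594-103773592, Serpina1a at chr12:103853589-103863562, Serpina1c at chr12:103894926-103904887 and Serpina1e at chr12:103946931-103958975. Serpina3k (chr12:104338486-104346144) and Serpina3n (chr12:104406729-104414329) are on the plus strand. The coding sequences of the 5 Serpina1 paralogs were 91.5% to 96.7% identical to one another, against 53.7% to 61.0% between a Serpina1 paralog and the other 3 genes.

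The coding sequence of the reactive centre loop, which meets the protease, is shown because it tells apart the paralogs whose shares are compared below. Each line gives 66 coding bases from the conserved hinge of the loop, read from the GENCODE transcript, and capitals mark the 15 positions at which the 5 Serpina1 paralogs are not all alike.
Serpina1a: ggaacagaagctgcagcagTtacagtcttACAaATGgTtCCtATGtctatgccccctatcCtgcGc
Serpina1b: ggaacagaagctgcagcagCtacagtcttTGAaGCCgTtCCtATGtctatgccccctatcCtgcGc
Serpina1c: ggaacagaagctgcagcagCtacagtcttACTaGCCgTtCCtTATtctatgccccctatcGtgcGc
Serpina1d: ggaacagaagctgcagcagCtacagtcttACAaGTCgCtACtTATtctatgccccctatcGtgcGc
Serpina1e: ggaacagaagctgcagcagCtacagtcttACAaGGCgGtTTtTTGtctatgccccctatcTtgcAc
Serpina1c and Serpina1d differed at 4 of these 66 bases, Serpina1a and Serpina1b at 6, and Serpina1a and Serpina1e at 10. The matching stretches of the antichymotrypsin group, all in lower case, are printed from the same hinge.
Serpina3k: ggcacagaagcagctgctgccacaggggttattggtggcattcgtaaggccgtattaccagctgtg
Serpina3n: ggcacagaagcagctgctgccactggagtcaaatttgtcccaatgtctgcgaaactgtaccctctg

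The paralogs were also nearly alike in front of their start sites. RefSeq promoters (GRCm38.p6, 250 bases before to 50 after the start) were given for 6 of the 8 genes, all but Serpina3k and Serpina6. The letters GTTAAT, the half-site of the hepatic factor HNF1, were found on either strand in all 5 Serpina1 promoters, against 7.10% of 32851 promoters of the same length, and not in that of Serpina3n. The 66 bases around this match (capitals, minus strand) differed between paralogs at 0 to 5 positions.
Serpina1a, chr12:103863625-103863690: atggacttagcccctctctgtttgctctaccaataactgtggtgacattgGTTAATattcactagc
Serpina1b, chr12:103738200-103738265: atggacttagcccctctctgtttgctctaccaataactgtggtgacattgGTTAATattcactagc
Serpina1c, chr12:103904962-103905027: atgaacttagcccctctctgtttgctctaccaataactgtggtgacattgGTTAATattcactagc
Serpina1d, chr12:103773634-103773699: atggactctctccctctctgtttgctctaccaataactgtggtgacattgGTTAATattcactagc
Serpina1e, chr12:103956960-103957025: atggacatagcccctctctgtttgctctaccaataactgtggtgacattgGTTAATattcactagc
TGANTCA, the AP-1 site, matched the promoters of Serpina1a to Serpina1d and not those of Serpina1e and Serpina3n (7.81% of all promoters), and the STAT site TTCNNNGAA matched none of the 6 (8.30% of all promoters). A match of letters does not show that a factor binds.

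Because the paralogs are so alike, the assignment of reads among them is uncertain. Of 311 windows of 90 bases in the last 400 bases of each transcript, 8 of Serpina1a, 15 of Serpina1b, 24 of Serpina1c and 31 of Serpina1d occurred unchanged in another member, and none of the other 4 genes. The annotated span of Serpina1b also covers Serpina1d, and Serpina3m (chr12:104338486-104394257) shares the start of Serpina3k. The effect of read assignment on the values below was not tested.

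The 11610 cells fell into 10 clusters, of which A with 1764 cells and B with 1182 cells were named hepatocyte-like. All 8 hepatocyte markers were detected in both, but any mean above 0 counted as detection. Every cluster detected all of its own markers by that rule, so the count alone does not set identity. Cluster A was led by Sult2a5, Fabp1 and Sult2a6, and cluster B by Slc22a30, Gcgr and Abcc2. The clusters differed in nuclear RNA: Xist was at 0.170 to 5.32 CP10K (counts per 10000 of a cell) in A and 164 to 239 in B. Their mix varied, cluster A holding 19.1% to 82.9% of the hepatocyte-like cells of a mouse with SIRT7-/- 3 the lowest, so values are given for each cluster. Albumin (Alb) averaged 137 CP10K in A and 77.6 in B of WT mice, against 25.7 in their non-hepatocyte classes together. In SIRT7-/- mice these means were 59.1, 46.5 and 17.7. Libraries held 2511947 to 11069411 unique molecular identifiers (UMIs), and 13 barcodes occurred in more than 1 library. Sirt7 itself was at 0.718, 0.512 and 0.546 CP10K over all cells of the WT mice and at 0.1, 0.0814 and 0.139 in the SIRT7-/- mice. Hemoglobin and other erythroid markers summed to 104 CP10K in cluster A of WT 1 and to at most 6.27 in the other mice. Neutrophil markers in cluster B summed to 0.0320 to 0.156 CP10K in WT and to 0.268 to 13.1 in SIRT7-/- mice. The part of these differences in the values below was not tested, beyond leaving out each mouse in turn.

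Together the 8 genes made up 0.778% to 1.25% of the RNA of cluster A in WT mice and 0.461% to 0.705% in SIRT7-/- mice. In cluster B the range was 0.412% to 0.750% in WT and 0.141% to 0.273% in SIRT7-/- mice. The groups did not overlap in either cluster.

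Serpina1a, a main alpha-1 antitrypsin gene, was lower in every SIRT7-/- mouse than in any WT mouse. In cluster A its mean was 21.9, 19.0 and 12.0 CP10K in WT 1 to 3 and 7.64, 4.95 and 5.65 in SIRT7-/- 1 to 3. This amounts to 17.6 ± 5.10 (SD, n = 3) against 6.08 ± 1.40 (n = 3), a 2.90-fold lower mean. In cluster B it was at 13.02, 10.0 and 4.55 in WT and at 1.98, 1.04 and 2.65 in SIRT7-/- mice, a 4.86-fold lower mean. The log2 difference was -1.51 ± 0.25 (SE) in cluster A and -2.22 ± 0.43 in cluster B.

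Serpina1b, the most abundant of the paralogs in the UMI counts of every mouse but WT 3 in cluster B, was lower on average in SIRT7-/- mice with overlapping groups. In cluster A it was at 54.1, 46.3 and 25.0 CP10K in WT and at 37.4, 24.9 and 29.6 in SIRT7-/- mice. These ranges overlap, and the log2 difference was -0.40 ± 0.26. In cluster B it was at 29.4, 20.04 and 7.40 in WT and at 6.26, 4.22 and 8.28 in SIRT7-/- mice. There WT 3 lay below SIRT7-/- 3, and the log2 difference was -1.43 ± 0.45.

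Serpina1c, like Serpina1a, was lower in every SIRT7-/- mouse. It was at 26.5, 23.2 and 14.4 CP10K in cluster A of WT and at 12.8, 9.83 and 8.20 in SIRT7-/- mice, with no overlap and a 2.08-fold lower mean. In cluster B the values were 16.2, 12.2 and 9.37 in WT and 4.76, 2.87 and 4.32 in SIRT7-/- mice, again apart, a 3.16-fold lower mean. The log2 differences were -1.03 ± 0.25 and -1.64 ± 0.36.

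Serpina1d, the fourth paralog by level, was nearly level between the genotypes in cluster A, at 7.02, 5.36 and 4.10 CP10K in WT and at 5.93, 4.31 and 5.87 in SIRT7-/- mice. Its log2 difference there was -0.01 with a 95% interval from -0.55 to 0.53, and its sign turned without WT 1, without SIRT7-/- 2 and with the mean of ln values. In cluster B the means were 2.52 ± 1.81 in WT and 1.43 ± 0.52 in SIRT7-/- mice, and the values overlapped.

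Serpina1e was barely detected. Its 6 libraries gave 1 to 17 UMIs each in cluster A and 0 to 17 in cluster B, and no mouse exceeded 0.385 CP10K. The 0 belongs to WT 3 in cluster B, where 3 UMIs would have given 0.391 CP10K, so a level below that was not detectable. No order of the genotypes can be read at this depth.

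Serpina3k, an antichymotrypsin-like gene of high hepatic level, was lower on average in SIRT7-/- mice with a wide spread. It was at 12.4, 23.4 and 20.6 CP10K in cluster A of WT and at 6.00, 1.76 and 13.8 in SIRT7-/- mice. SIRT7-/- 3 lay above WT 1, so the groups overlapped, and the log2 difference was -1.77 ± 0.85. In cluster B the levels were 8.47, 6.66 and 17.4 in WT and 4.48, 2.47 and 7.42 in SIRT7-/- mice, where SIRT7-/- 3 lay above WT 2, with a log2 difference of -1.18 ± 0.43. Over both clusters together the groups did not overlap, at 16.7 ± 5.09 against 5.29 ± 3.38. These pooled values also depend on the mix of clusters, with 19.1% of the cells of SIRT7-/- 3 in cluster A. The part of the mix in this separation was not tested.

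Serpina3n, the acute-phase member, was low, with differences of opposite sign in the clusters. In cluster A it was at 0.701, 0.827 and 0.351 CP10K in WT and at 0.214, 0.0215 and 0.518 in SIRT7-/- mice, the last group resting on 21, 1 and 6 UMIs. In cluster B it was at 0.516, 0.583 and 0.332 in WT and at 1.27, 0.867 and 1.05 in SIRT7-/- mice, without overlap. These rest on 44, 19 and 2 UMIs in WT and on 73, 6 and 107 in the knockout. The 2 UMIs of WT 3 lie below the 3 that would give 0.391 CP10K there. The log2 differences were -1.54 ± 0.65 and 1.09 ± 0.42. The summed neutrophil markers given above were also higher in cluster B of every SIRT7-/- mouse. The summed plasma markers were too, at 4.42 to 6.65 CP10K against 3.93 to 4.16 in WT. Singly, 1 of 7 neutrophil and 3 of 6 stellate markers were higher there without overlap, beside 12.8% of all genes tested. So were 1 of 9 macrophage, 1 of 5 plasmacytoid dendritic, 1 of 6 NK and 1 of 7 endothelial markers. The part of these markers in the Serpina3n values was not tested. Over both clusters the difference was -0.17 ± 0.52, and its sign turned without WT 2, without SIRT7-/- 2 and with the mean of ln values.

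Serpina6, the corticosteroid carrier, was at 1.94, 2.86 and 1.02 CP10K in cluster A of WT and at 0.502, 0.243 and 1.51 in SIRT7-/- mice. In cluster B it was at 2.99, 2.16 and 1.29 in WT and at 0.967, 0.640 and 1.82 in SIRT7-/- mice. SIRT7-/- 3 lay within the WT range in both clusters, and the log2 differences were -1.54 ± 0.59 and -0.93 ± 0.43.

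**Figure D1:**
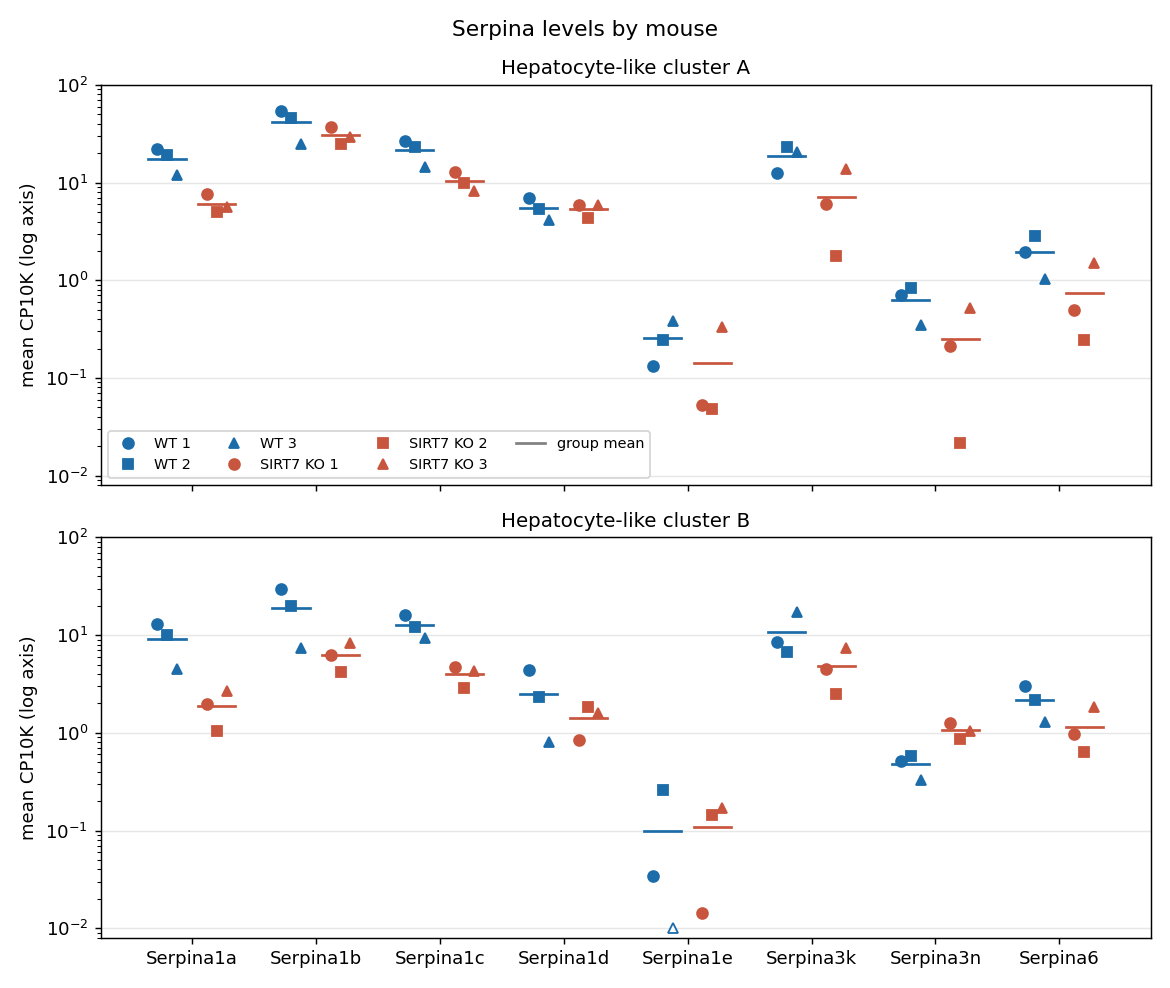
Mean CP10K on a log axis of the 8 genes in hepatocyte-like clusters A (top) and B (bottom), 1 point per mouse (blue WT, red SIRT7-/-, shape the mouse number) with bars at group means; an open symbol on the floor is a mouse with 0 UMIs. Serpina1a and Serpina1c are lower in all SIRT7-/- mice in both clusters, while Serpina3n is higher in all SIRT7-/- mice in cluster B.

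Across the 8 genes, 2 did not overlap in the lower direction in cluster A (8.93% of 8582 genes tested did so) and 2 in cluster B (4.22% of 10274 genes), in both cases Serpina1a and Serpina1c. Serpina3n was the 1 member apart in the higher direction in cluster B (12.8% of genes). Over both clusters together 3 members were lower without overlap, Serpina1a, Serpina1c and Serpina3k (3.22% of genes). Of these, Serpina3k overlapped within each cluster. In limma with Benjamini-Hochberg adjustment over all genes tested, 1 member, Serpina1a, passed an adjusted p of 0.05 in each cluster, beside 0.466% of genes in A and 0.253% in B in either direction, and 0.326% and 0.146% in the lower one. Over both clusters 0 members passed and 4 had an unadjusted p under 0.05, beside 0.122% of genes that passed and 7.43% with an unadjusted p under 0.05. In cluster A 898 of 8582 genes and in cluster B 1043 of 10274 genes (10.2%) had an unadjusted p under 0.05, the background of the list counts further on. In cluster A 0 members passed without SIRT7-/- 2 (19 of 8556 genes did). There 2 each passed without WT 3 (54 of 8428), SIRT7-/- 1 (45 of 8598) or SIRT7-/- 3 (149 of 8640). In cluster B 0 passed without WT 1 (12 of 10341 genes did), WT 2 (20 of 10323) or SIRT7-/- 2 (19 of 10194). There 2 passed without SIRT7-/- 1 (55 of 10238) and 4 without SIRT7-/- 3 (180 of 10181). With the mouse number as a block, 0 passed in cluster A (2 of 8582 genes did) and 2 in cluster B (54 of 10274). Since these contrasts picked the members, nothing is read from the counts. The median log2 difference of the members was -1.27 in A and -1.06 in B, beside -0.09 and 0.19 for all genes tested, and -1.01 over both clusters beside 0.16.

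**Figure D2:**
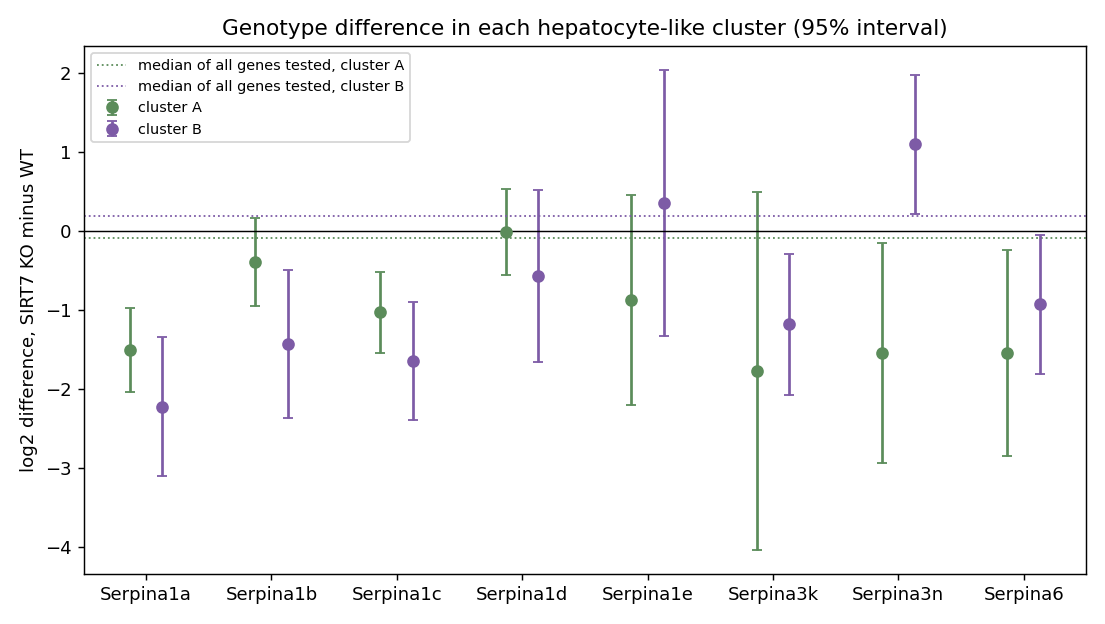
Log2 difference of SIRT7-/- minus WT for each gene in cluster A (green) and cluster B (purple) with 95% intervals from limma; dotted lines are the medians of all genes tested. The intervals of Serpina1a, Serpina1c and Serpina6 lie below 0 in both clusters. Serpina3n and Serpina1e lie on opposite sides of 0, with intervals of Serpina1e that include 0.

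Albumin, the main plasma protein of hepatocytes, was itself lower on average, at 137 ± 75.1 CP10K in WT against 59.1 ± 42.1 in SIRT7-/- mice in cluster A and at 77.6 ± 33.4 against 46.5 ± 30.4 in cluster B, with overlapping mice in both. Set against albumin, the genotypes overlapped in cluster A for Serpina1a, with 11.8 ± 4.45 UMIs per 100 Alb UMIs in WT and 14.2 ± 7.80 in SIRT7-/- mice. Serpina1d was there higher in every SIRT7-/- mouse, at 11.9 ± 6.25 against 3.75 ± 1.62 per 100 Alb UMIs. Serpina1b was at 69.9 ± 37.2 against 27.4 ± 11.01 with overlapping mice. In cluster B the ratio of Serpina1a stayed apart, at 11.5 ± 0.791 against 4.48 ± 1.07. The ratio of Serpina1c overlapped between the genotypes in both clusters. It was 14.7 ± 5.46 in WT and 25.8 ± 16.9 in SIRT7-/- mice in cluster A. In cluster B it ran from 14.2 to 21.3 in WT and from 5.41 to 15.9 in SIRT7-/- mice. Serpina6 per 100 Alb UMIs was 1.35 ± 0.0894 against 1.24 ± 0.263 in cluster A and 2.81 ± 0.178 against 2.40 ± 0.217 in cluster B. Serpina3k per 100 Alb UMIs overlapped between the genotypes in both clusters, with WT 3 highest at 30.4 in A and 41.2 in B.

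The share of Serpina1a among the Serpina1 transcripts was lower in every SIRT7-/- mouse. In cluster A, Serpina1a gave 19.9% (95% Wilson interval 19.0% to 20.8%), 20.3% (19.4% to 21.2%) and 21.4% (17.9% to 25.3%) of the Serpina1 UMIs of WT 1 to 3. It gave 12.1% (11.2% to 13.1%), 11.4% (9.97% to 13.1%) and 11.2% (9.18% to 13.5%) in SIRT7-/- 1 to 3. The intervals, which cover counting error only, did not meet between any WT and any SIRT7-/- mouse. Serpina1b and Serpina1d took the larger shares in SIRT7-/- mice, 57.9% ± 1.55 against 47.4% ± 2.93 and 9.93% ± 0.878 against 6.37% ± 0.705. Serpina1c took 20.4% ± 2.14 against 25.5% ± 1.5. None of these 4 shares overlapped between the groups. They are parts of a common total, so a lower share of any paralog raises the others, and the separations are not independent. The larger shares were not higher levels. In cluster A mean Serpina1b was at 30.6 CP10K in SIRT7-/- mice against 41.8 in WT, and mean Serpina1d at 5.37 against 5.49.

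For each 1 UMI of Serpina1b there were 0.404, 0.415 and 0.485 of Serpina1a in cluster A of the WT mice and 0.206, 0.204 and 0.190 in the SIRT7-/- mice. In cluster B the share of Serpina1a was 20.7%, 22.8% and 21.1% in WT and 14.3%, 9.68% and 15.5% in SIRT7-/- mice, the 9.68% resting on 6 of 62 UMIs with an interval from 4.51% to 19.5%. The shares of Serpina1b, Serpina1c and Serpina1d overlapped between the genotypes in cluster B. These shares rest on the same contrast as the choice of genes and on read assignment among near-identical copies.

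**Figure D3:**
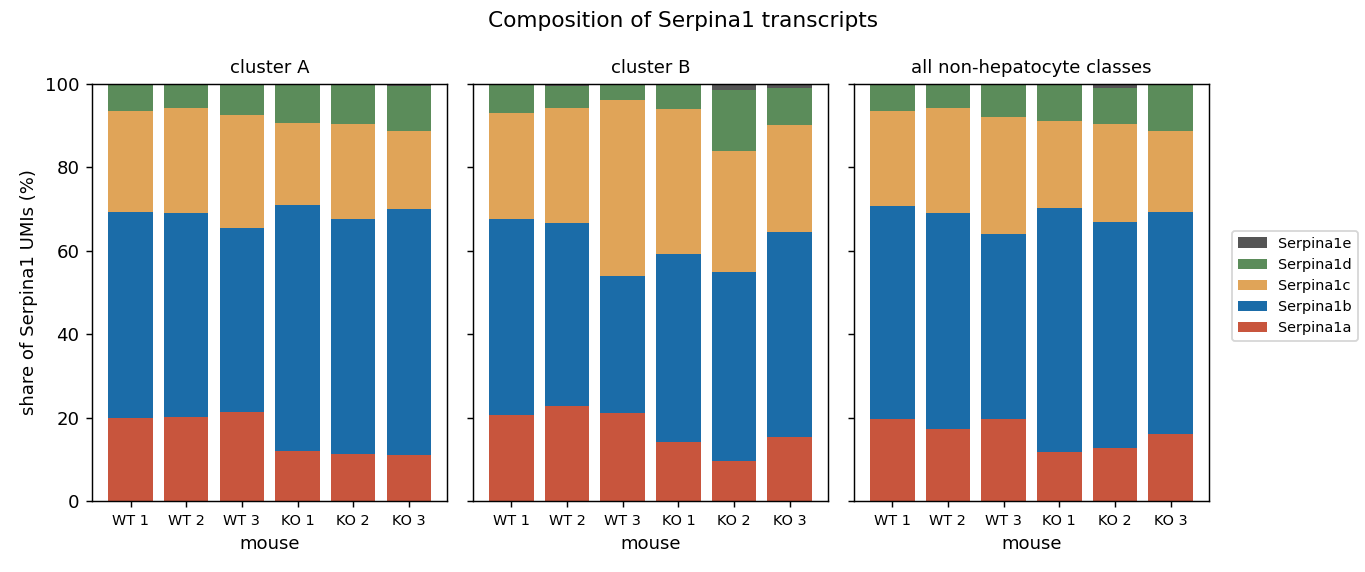
Share of each Serpina1 paralog among all Serpina1 UMIs of a mouse (percent, stacked to 100) in cluster A, cluster B and the non-hepatocyte classes together. The red Serpina1a part is near 20% in every WT mouse and lower in every SIRT7-/- mouse.

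Outside hepatocytes UMIs of the members were also found, with Serpina1e at 0 in all 3 mice with enough B-like cells. In macrophage-like cells Serpina1b was at 11.2, 9.74 and 2.83 CP10K in WT and at 3.14, 0.549 and 1.89 in SIRT7-/- mice. Over the non-hepatocyte classes together its level was 5.45% to 35.9% of that in hepatocyte-like cells of the same mouse, and albumin ran from 13.7% to 41.9%. The number of Serpina1b UMIs per 100 Alb UMIs, divided by the hepatocyte value, had a median of 0.912 over the 6 mice and a range from 0.368 to 2.91. For Serpina3k the median was 1.09 (0.913 to 1.46) and for Serpina6 0.660 (0.454 to 1.02). Free RNA and expression in these classes cannot be told apart from these values, so the levels are not read as expression.

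Serpina1a gave 19.0% ± 1.35 of Serpina1 UMIs in the non-hepatocyte classes of WT mice and 13.6% ± 2.31 in SIRT7-/- mice. By class, this share overlapped in macrophage-like cells (16.9% to 21.4% in WT against 11.8% to 19.4%) and in T- and NK-like cells (17.4% to 19.5% against 11.3% to 18.0%). It did not overlap in the mixed, endothelial-like and plasma-like classes. SIRT7-/- 2 gave 4 Serpina1a UMIs in the endothelial-like and 7 in the plasma-like class. With few mice and UMIs, and no like share over all genes, nothing is read from these separations. In the macrophage-like, T- and NK-like, mixed, endothelial-like and plasma-like classes, limma called 0 members, with 4, 3, 3, 1 and 3 at an unadjusted p under 0.05, beside 0.201%, 0.12%, 0.0308%, 0.253% and 0.0781% of genes called and 10.6%, 7.1%, 5.92%, 7.45% and 6.6% of genes at an unadjusted p under 0.05. The mixed class held dendritic, monocyte and basophil cells. Only 2 SIRT7-/- mice had 20 endothelial-like cells, and plasma-like cells had 2 mice per group. Without WT 1 or without SIRT7-/- 3 the calls stayed at 0, beside 21 of 48105 and 74 of 48094 tests of all genes over the classes. Leaving out any other mouse left 1 mouse in a group of some classes, so those counts are not given singly.

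**Figure D4:**
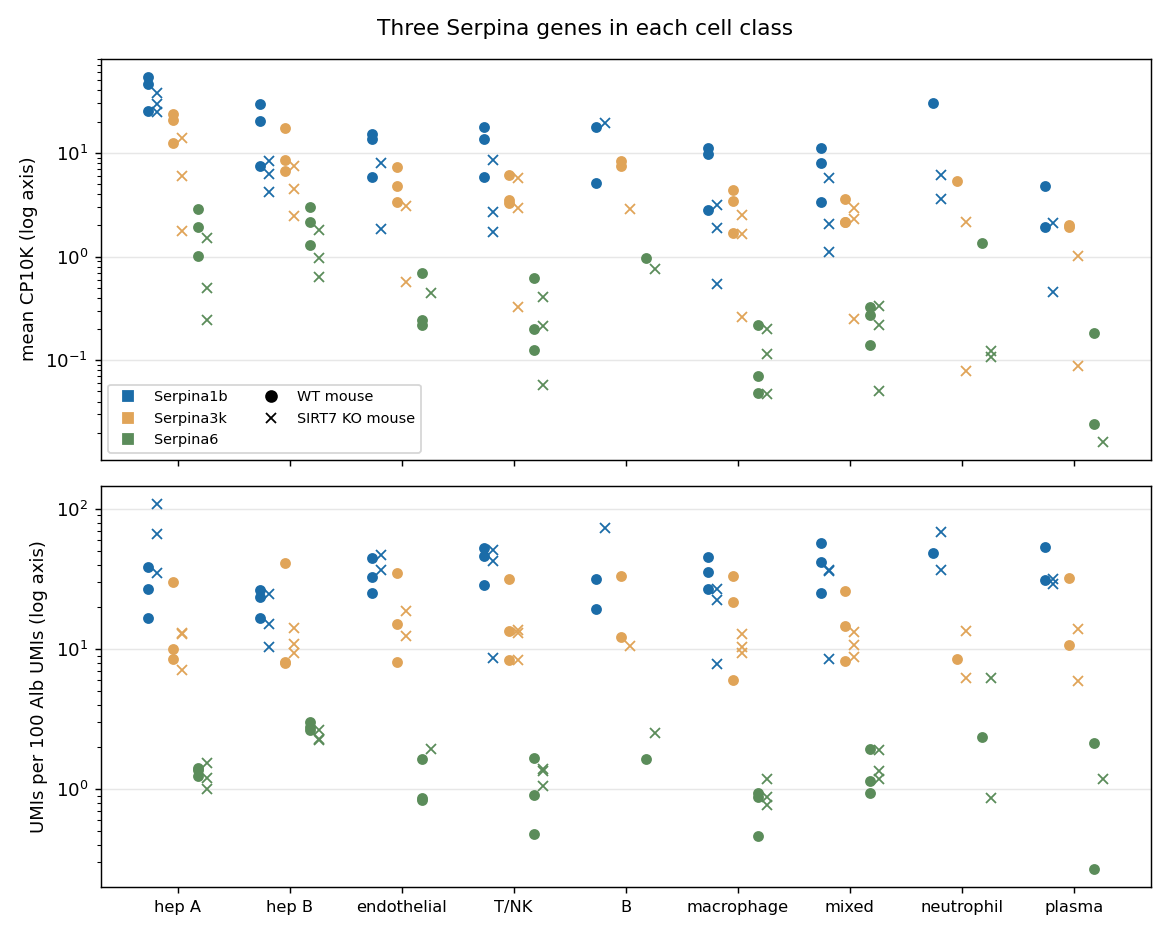
Serpina1b, Serpina3k and Serpina6 in each cell class with at least 20 cells in a mouse, as mean CP10K (top) and as UMIs per 100 Alb UMIs (bottom), both on log axes, with 1 symbol per mouse (circle WT, cross SIRT7-/-) and mice at 0 left out. Serpina1b is higher in cluster A than in every other class in each mouse, while values of cluster B lie among those of other classes, and the ratio to albumin of Serpina1b outside hepatocytes had a median of 0.912 times the hepatocyte value.

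Hepatocytes differ along the lobule, so the members were compared between the lowest and the highest of 3 equal parts of the cells of each mouse, ordered by a zonal score, the periportal share of the UMIs of 20 zonal genes, none of them a member. This contrast was not used to choose the genes. In limma with the mouse as a block, 0 of 8 members passed (1.71% of 9810 genes did) and 1 had an unadjusted p under 0.05 (20.2% of genes did). That member was Serpina3k, lower on the periportal side in 5 of 6 mice by a log2 difference of -0.53 (95% interval -1.01 to -0.05, adjusted p = 0.204). Serpina1a differed by -0.29 (-0.76 to 0.17), Serpina1b by -0.38 (-0.82 to 0.05) and Serpina1c by 0.04 (-0.40 to 0.49).

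The compared parts also differed in their mix of clusters, with 43.2% to 97.1% of cluster A cells on the pericentral side and 2.70% to 67.7% on the periportal side. The sides are relative within a mouse. Mean scores were 0.333 to 0.680 on the pericentral side and 0.781 to 0.960 on the periportal side. In WT 1 (0.680) and SIRT7-/- 3 (0.538) the pericentral side thus held mostly periportal UMIs by mean score. Within cluster A alone 0 members passed and 4 had an unadjusted p under 0.05 (5.1% of genes did). Their log2 differences were 0.93 for Serpina1d (0.38 to 1.48, adjusted p = 0.681), 0.23 for Serpina1b, 0.40 for Serpina1c and -0.73 for Serpina6 (-1.40 to -0.07). Serpina1b had the opposite sign over both clusters. Within cluster B limma called 0 members, with 0 at an unadjusted p under 0.05. The zonal difference itself did not pass between the genotypes for any gene, with 0 of 9810 called by limma and 517 at an unadjusted p under 0.05, and 1 member, Serpina3n, among the latter. Its difference of 3.39 (0.94 to 5.83, adjusted p = 0.770) rests in part on compared parts with 0 UMIs.

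**Figure D5:**
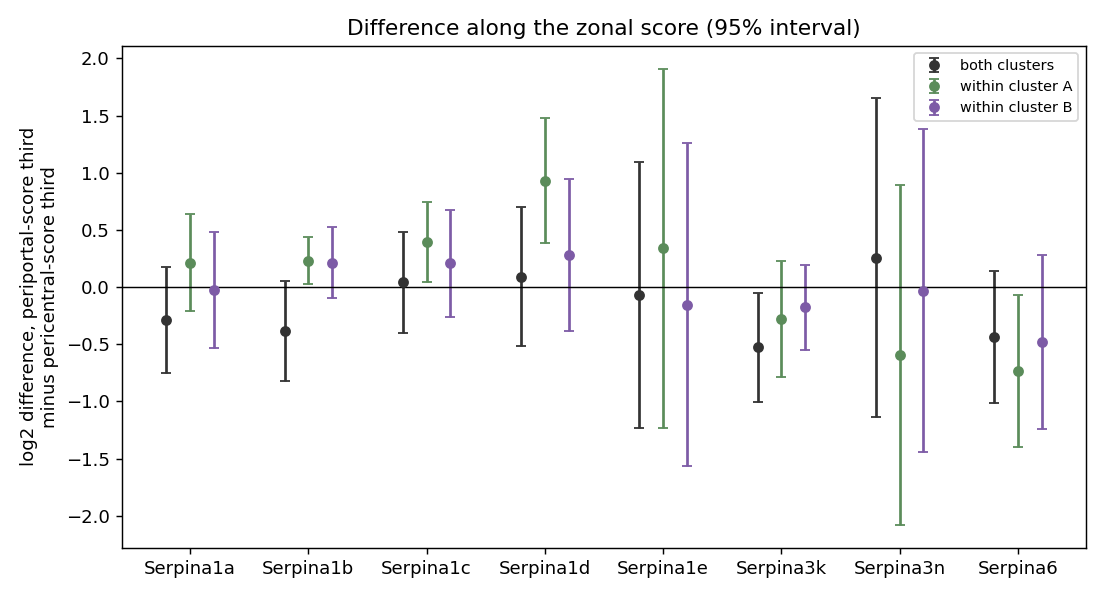
Log2 difference between the highest and lowest of 3 parts by periportal score of hepatocyte-like cells for the 8 genes with 95% intervals, over both clusters (black), within cluster A (green) and within cluster B (purple). All Serpina1 intervals over both clusters include 0, and the Serpina3k interval lies just below it.

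Of 11 further Serpina genes in the table, 5 were tested in cluster A and 6 in cluster B by limma. Serpina3m was called in cluster A, at 1.20 ± 0.307 CP10K in WT and 0.254 ± 0.0902 in SIRT7-/- mice (adjusted p = 0.0206), with the shared start with Serpina3k as a limit. Serpina10, the inhibitor of coagulation factor Xa, was at 0.899 ± 0.564 against 0.652 ± 0.378 in cluster A. Serpina11 was at 0.898 ± 0.215 against 0.489 ± 0.176 in cluster A and at 1.38 ± 0.888 against 1.38 ± 0.470 in cluster B. In cluster B Serpina3m overlapped, at 0.601 ± 0.380 against 0.384 ± 0.0893, and Serpina10 was at 1.98 ± 0.340 against 1.65 ± 0.397. Serpina3g, in contrast with the members, was nearly absent from hepatocyte-like cells at 0.0140 ± 0.0174 CP10K in WT and stood at 1.08 ± 0.143 in T- and NK-like and 1.55 ± 0.388 in endothelial-like cells. Serpina7, the thyroxine-binding globulin, was at 0.0445 ± 0.0771 in cluster A of WT and 0.343 ± 0.207 in SIRT7-/- mice, with overlap. In cluster B it was at 0.0583 ± 0.0541 against 0.459 ± 0.260, higher in every SIRT7-/- mouse (12.8% of genes were). It was called in neither cluster.

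Serpins of other clades made in the liver were not called in either cluster (0 of 6, with 3 at an unadjusted limma p under 0.05 in A and 1 in B). Their median log2 difference was -1.40 in A and -0.48 in B. In cluster A the differences were -1.47 for Serpind1, -1.33 for Serpinf2 and -1.17 for Serping1, inhibitors of thrombin, plasmin and complement C1. Antithrombin, Serpinc1, was at 5.89 ± 3.15 CP10K in WT and 3.05 ± 2.52 in SIRT7-/- mice in cluster A, and at 6.82 ± 1.97 and 7.06 ± 2.45 in cluster B. Among the target proteases, 1 was tested in A and 2 in B, none called and 0 at an unadjusted p under 0.05. The proteins that fold, sort and export secretory cargo gave 0 of 15 calls in each cluster, with 6 at an unadjusted p under 0.05 in A and 3 in B and medians of -1.03 and -0.06.

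Lists of possible regulators had no calls apart from 1 acute-phase gene. The 10 hepatic transcription factors gave 0 calls in each cluster (1 and 0 at an unadjusted limma p under 0.05, medians -0.23 and 0.01). Growth hormone signalling gave 0 of 8 and 0 of 9 (2 and 0 at an unadjusted p under 0.05, medians -0.38 and 0.13), and the glucocorticoid list, whose hormone Serpina6 carries, 0 of 5 and 0 of 6 (3 and 3, medians -1.44 and -1.08). Of the acute-phase genes, 1 of 19 was called lower in A and 0 of 18 in B (8 at an unadjusted p under 0.05 in each, medians -1.26 and -1.11). The gene called was Saa4, a constitutive serum amyloid, at 1.70 ± 0.633 against 0.340 ± 0.0375 (adjusted p = 0.0115).

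Among the female-biased liver genes, Sult2a1, a steroid sulfotransferase, was called lower in both clusters. It was at 33.4 ± 4.20 CP10K in WT and 10.0 ± 3.86 in SIRT7-/- mice in cluster A (limma adjusted p = 0.00501) and at 13.7 ± 7.40 against 2.27 ± 0.470 in cluster B (limma adjusted p = 0.0151). The male-biased list gave 0 of 6 and 0 of 5 calls (4 and 1 at an unadjusted p under 0.05, medians -1.09 and -0.86). Of the sex-linked transcripts limma called 0 of 1 and 0 of 2, with 0 at an unadjusted p under 0.05. Xist was present in all 6 libraries, at 24.8 to 104 CP10K over all cells. The Y-linked transcripts listed, Ddx3y, Uty, Eif2s3y and Kdm5d, were not among the genes of the table. Of the zonal genes, Cyp2e1 on the pericentral list and Hal on the periportal list were called lower in cluster A, at 13.7 ± 6.10 against 5.13 ± 0.876 and at 3.99 ± 1.91 against 0.963 ± 0.227, and none in B, where 5 of 10 and 1 of 10 had an unadjusted limma p under 0.05.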

How the data were processed

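Single-cell libraries of 3 WT and 3 SIRT7-/- livers were processed by the authors with Cell Ranger 6.0.0 on mm10. They kept cells with at least 500 genes and at most 5% mitochondrial genes. The authors deposited 1 table of all cells on a natural log scale (counts per 10000 plus 1), mapped to mice by barcode ending. The record of units lists 9 columns by name, but all 16623 gene columns were read. UMIs were recovered from the smallest step of each cell, whole within 0.02 for 100% of values. The depth was 2511947 to 11069411 UMIs per library.

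Cells were clustered with scanpy 1.11.5 on 1000 variable genes without Serpina genes, with 3 neighbours per mouse and Leiden resolution 0.35. Doublet calling marked 46 cells (0.396%), too few to rely on, and none was removed. Mean CP10K per mouse and class (at least 20 cells) entered limma 3.58.1 as log2(mean + 0.05), genes with a mean under 0.05 left out, with trend and robust options. Log2 differences are on this scale, which understates changes of low genes, and printed folds are ratios of mean CP10K. Adjusted p-values are Benjamini-Hochberg over all genes tested. Each mouse is 1 sample, and p-values measure the spread between mice. Steps were tested on simulated data.

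Members, lists and tests were chosen with earlier results of these data known. Named genes are the members, other Serpina genes and liver serpins, other listed genes that passed, genes within 1 Mb that passed, and the 5 outside the family most alike in pattern. Alternatives were pseudocounts, filters, each mouse left out, doublets, UMI thresholds, clusterings and a replicate block. The comparison of clusters A and B and the zonal fits within a cluster were added after seeing the data. Cell type proportions were not analysed here. The result of 1 listed gene, and the counts of its list, are not reported here.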

Additional observations from a re-analysis of the deposited data

Results flagged for a closer look

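Serpina3n stood out because every WT mouse moved one way and every SIRT7-/- mouse the opposite way between the hepatocyte-like clusters. The log2 level in cluster B minus that in cluster A was -0.41, -0.47 and -0.07 in WT 1 to 3 and 2.33, 3.68 and 0.95 in SIRT7-/- 1 to 3, a difference between the genotypes of 2.64. The limma interval was 0.94 to 4.33, and the difference did not pass after adjustment over all genes tested (limma adjusted p = 0.412). These values include the genotype contrast on which the gene was chosen, and the gene was flagged because of this split. They are therefore a description, and the interval is not read as a test. The estimate ranged from 0.38 to 3.32 over the alternatives, all with the same sign. The low values in cluster A of SIRT7-/- mice rest on 21, 1 and 6 UMIs. The small move of WT 3 rests on 8 UMIs in cluster A and 2 in cluster B, where 3 UMIs would have given 0.391 CP10K, so its direction is uncertain. The summed neutrophil markers and Neat1 were also higher in cluster B of SIRT7-/- mice, Neat1 at 69.6 to 118 CP10K against 34.6 to 57.9 in WT. Their part in the result was not tested.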

How the results depend on the processing

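The number of members called moved with the setting, and the cause was not tested. In cluster A, where 1 was called, it was 2 with no filter on low values (58 of 13473 genes called) or with summed UMIs (112 of 8562). It was 0 with the replicate block, and 0 to 2 with 1 mouse left out. In cluster B, also with 1, it was 2 with a pseudocount of 0.5 (41 of 10274 genes called), with the replicate block (54 of 10274) or with at least 50 cells (89 of 10105). It was 0 with no filter (13 of 14711), a minimum mean of 0.2 (8 of 7008) or summed UMIs (13 of 10421), and 0 to 4 with 1 mouse left out. In the other classes calls were summed over 5 classes, so 1 member can count more than once. There 0 of 34 tests of a member in a class were called. The sum was 6 with no filter, 7 with the mean of ln values and 5 with the replicate block (over 4 classes). It was 0 to 10 with 1 mouse left out, but some of these settings left 1 mouse in a group, so nothing is read from that range. The counts over both clusters, along the zonal score and between clusters stayed at 0. Over all genes, calls ranged from 0 to 33 over both clusters (12 as reported), from 2, with the replicate block, to 149 in cluster A (40) and from 7 to 180 in cluster B (26). In the other classes they ranged from 21 to 336 (68), settings that left 1 mouse in a group not counted. They ranged from 0, within cluster B, to 1081 without WT 3 along the zonal score (168) and from 0 to 11 between clusters (0). The log2 difference of Serpina1a kept its sign in all 16 alternatives of each cluster, from -1.76 to -1.33 in A and from -2.66 to -1.76 in B. The mice share only a number: deviations of same-numbered mice correlated at -0.155 to 0.138, and 2, 0 and 0 of 6 mice correlated best with their own number over both clusters, in A and in B. Of 762 values for single members, 742 stayed on the same side of the threshold, 12 gained a call and 8 lost one, and 40, none of them called, had the opposite sign. Depth limits Serpina1e and Serpina3n, which rest on few UMIs.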

Other observations

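The genes outside the family whose pattern was most like the mean log2 level of the members, over 45 means of a mouse and class in 9 classes, were Apoa2 (r = 0.970), Apoc3 (0.966), Ttr (0.965), Rbp4 (0.963) and Gc (0.959), all coding for plasma proteins or apolipoproteins made by hepatocytes. The means share libraries and background, so r is a description. Among the members it ran from 0.575 for Serpina1e to 0.944 for Serpina1a.

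Of 94 annotated genes within 1 Mb of the members, 15 were tested in cluster A and 20 in cluster B. In cluster A, beside 0.466% of all genes called, 1 was called lower, Serpina3m, and 1 higher. The latter was Ifi27, an interferon-induced gene, at 1.26 ± 0.556 CP10K in WT and 9.03 ± 4.06 in SIRT7-/- mice (limma adjusted p = 0.0132). In cluster B limma called 0 of the 20 neighbours, with 4 at an unadjusted p under 0.05 (10.2% of all genes). Ifi27 was among these 4, at 1.27 ± 0.0752 against 3.90 ± 2.10.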
